A study of Mus musculus with 2 samples.

Results

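Msx1, Msx2, Dlx5, Olig3 and Zic2, transcription factor genes of the dorsal neural tube, were compared between mouse embryoid bodies that differ in Elongin A. They were taken by symbol from the probe annotation of the array, and each was read by 1 probe, so that 5 of the 13697 genes named there are described. One array held RNA of bodies grown from Elongin A-/- embryonic stem (ES) cells and the other RNA of bodies grown from Elongin A+/+ ES cells. Elongin A stimulates transcript elongation by RNA polymerase II as the main subunit of the Elongin complex. Bodies of both genotypes grew in DMEM/F12 with 15% serum and N2 and received 2 µM retinoic acid for 4 days, so neither array shows untreated cells. How many ES cell lines or clones stand behind each genotype, which part of the gene was deleted and how many bodies were pooled is not given in the sources used. The 5 genes were chosen by their lower values in this same comparison, so their differences are given as a description, with no test.

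Cells of the dorsal neural tube are specified by BMP and WNT proteins made by the overlying ectoderm and then by the roof plate, the strip of cells at the dorsal midline. These signals switch on transcription factors in bands along the dorsal to ventral axis, while Sonic hedgehog acts from the floor plate on the ventral side. Msx1 and Msx2 are homeodomain repressors induced by BMP, Zic2 is a zinc finger factor of the dorsal midline and neural plate, and Olig3 is a basic helix-loop-helix factor of the dorsal progenitors next to the roof plate. Dlx5, a homeodomain factor, marks the border between neural plate and ectoderm more than the tube itself. Msx1, Msx2 and Dlx5 are also known from limb and skull, and Msx1 and Msx2 from neural crest.

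The proximal promoters of 3 of the 5 genes, Msx1, Msx2 and Olig3, are shown because these genes were lower together. Dlx5 and Zic2 had no match. They are RefSeq sequences of build GRCm38.p6, from 250 bases before to 50 after the annotated start, written 5′ to 3′ along the gene. They lie at chr5:37824536-37824835 on the minus strand for Msx1, chr13:53472731-53473030 on the minus strand for Msx2 and chr10:19356289-19356588 on the plus strand for Olig3. Capitals mark every match to any of 7 short motifs searched on both strands.
Msx1: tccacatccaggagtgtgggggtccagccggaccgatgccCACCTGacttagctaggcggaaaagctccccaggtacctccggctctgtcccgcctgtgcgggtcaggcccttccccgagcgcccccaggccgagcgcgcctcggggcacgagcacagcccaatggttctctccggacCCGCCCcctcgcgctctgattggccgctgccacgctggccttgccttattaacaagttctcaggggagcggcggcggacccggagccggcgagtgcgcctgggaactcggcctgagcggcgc
Msx2: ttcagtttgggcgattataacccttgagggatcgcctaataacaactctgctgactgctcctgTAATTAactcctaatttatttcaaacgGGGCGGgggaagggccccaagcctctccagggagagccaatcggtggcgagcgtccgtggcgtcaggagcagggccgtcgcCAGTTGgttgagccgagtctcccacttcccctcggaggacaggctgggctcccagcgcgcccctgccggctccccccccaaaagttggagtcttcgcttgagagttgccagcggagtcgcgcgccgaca
Olig3: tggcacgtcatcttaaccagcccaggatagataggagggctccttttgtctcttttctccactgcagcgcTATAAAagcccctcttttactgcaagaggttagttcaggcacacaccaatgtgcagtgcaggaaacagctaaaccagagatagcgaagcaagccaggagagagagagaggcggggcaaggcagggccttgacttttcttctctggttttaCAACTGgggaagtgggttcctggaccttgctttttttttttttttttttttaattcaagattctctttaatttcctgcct

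The E-box, CANNTG, the sequence read by basic helix-loop-helix factors, occurred once in each of the 3 promoters, and it is held by 72.3% of the 32851 promoters of that length. Its first base stood at -210 in Msx1, -79 in Msx2 and -30 in Olig3, counted from the annotated start. The GC box, GGGCGG, was found in Msx1 at -72 on the opposite strand and in Msx2 at -160, and 35.7% of promoters hold it. Msx2 alone of the 3 held the homeodomain core TAATTA, at -187, which is in 5.29% of promoters. Olig3 alone held TATAAA, at -180, against 13.6% of promoters. GGCGCC, a GC-rich element bound by SMAD proteins, AGGTCA, the half-site of nuclear receptors such as those for retinoic acid, and CTTTGA, the core read by TCF and LEF factors, had 0 matches in the 3 windows, against 11.9%, 16.3% and 16.0% of all promoters. In base composition Msx1 (70% G or C, 29 CpG) and Msx2 (61%, 22 CpG) were richer than the median promoter (52.7%, 7 CpG), and Olig3 (46%, 4 CpG) was poorer. A match is a description of letters and not a bound site.

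Intensities below are quantile normalised unless called deposited. Differences are log2 values, Elongin A-/- minus Elongin A+/+, and the floor is the median of all normalised values, 1.03. Of the named genes 9568 exceeded the floor in 1 or both genotypes and are called measured. A value under the floor was set to it, so that such a difference is a bound. There was 1 array per genotype, so no replicate check exists and no difference could be tested, and the genotypes cannot be told apart from the cell lines, cultures and arrays that carried them. A yardstick is how far probes of 1 gene disagree, an SD of 0.43 on the log2 scale over 224 genes. Eloa, the Elongin A gene, had 3.57 in Elongin A-/- bodies and 3.87 in Elongin A+/+ bodies, and where its probe lies relative to the deletion is not given there either, so it checks nothing about the labels. Fewer cells of a type and less RNA per cell cannot be told apart in such bulk samples.

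All 5 factors were lower in Elongin A-/- bodies, by 3.23-fold to 7.14-fold, with a median difference of -2.05 against -0.02 over all measured genes. At least 2-fold lower were 5 of 5, where the share over all measured genes was 5.97%. Among the same 9568 genes 6.76% were at least 2-fold higher. Since the 5 genes were chosen with this contrast in view, nothing is read from their count.

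Olig3 had the lowest difference of the 5, though its gap to Zic2 is within the SD between probes. Its deposited intensity was 5.99 in Elongin A-/- bodies and 39.5 in Elongin A+/+ bodies, and its normalised intensity was 5.71 against 40.8. The difference of -2.84 is a 7.14-fold lower level, and both values stood well above the floor. Counted from the lowest difference, Olig3 ranked 19 of the 9568 measured genes.

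Msx1 and Msx2, the BMP-induced pair, differed by similar amounts. Msx1 had 6.03 as deposited and 5.75 after normalisation in Elongin A-/- bodies, against 23.0 and 23.9 in Elongin A+/+ bodies. That is a difference of -2.05, or 4.15-fold lower. Msx2 had 6.30 as deposited and 6.03 after normalisation in Elongin A-/- bodies, against 18.6 and 19.5 in Elongin A+/+ bodies, a difference of -1.69 or 3.23-fold. The gap between the differences of the pair is smaller than the SD between probes, so these arrays do not settle their order. In Elongin A-/- bodies Msx1 still stood at 5.60 times the floor and Msx2 at 5.88 times.

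Zic2 and Dlx5 were at or under the floor in Elongin A-/- bodies, so their folds are less certain. Zic2 had 1.07 as deposited and 1.06 after normalisation in Elongin A-/- bodies, against 5.37 and 5.64 in Elongin A+/+ bodies. The difference of -2.41 rests on a value that is 1.03 times the floor, and raising the floor to the 75th percentile left a bound of -0.12. Dlx5 had 0.969 as deposited and 0.973 after normalisation in Elongin A-/- bodies, under the floor, against 3.83 and 4.07 in Elongin A+/+ bodies. It was therefore at least 3.97-fold lower, and the stricter floor removed it from the measured genes. These 2 factors differ from the other 3 in that their level in Elongin A-/- bodies is not told apart from the floor.

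**Figure D1:**
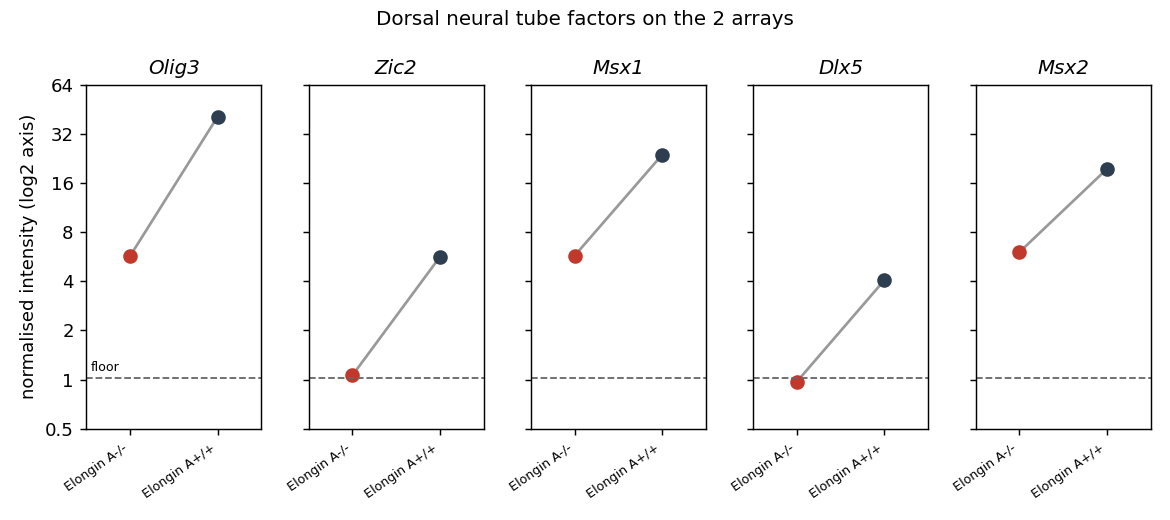
Normalised intensity (log2 axis) of each factor in Elongin A-/- bodies (left, red) and Elongin A+/+ bodies (right, dark), 1 array each with no error bar, and the floor of 1.03 dashed. Olig3, Msx1 and Msx2 sit above the floor on both arrays, while Zic2 (1.06) and Dlx5 (0.973) lie at it in Elongin A-/- bodies.

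The share of genes that were at least 2-fold lower changed with their level. The measured genes were divided by mean level into 4 bins of equal size, numbered from the dimmest. In bin 2, which holds Zic2 and Dlx5, 12.0% of genes were at least 2-fold lower, against 3.39% in bin 3, which holds Olig3, Msx1 and Msx2. The share was 6.98% in bin 1, and 1.55% in bin 4. The genes lie on 5 different chromosomes. Dlx5 is on chromosome 6, where the median of 518 measured genes was -0.26 and 11.2% were at least 2-fold lower. The other chromosomes, 5 (Msx1), 10 (Olig3), 13 (Msx2) and 14 (Zic2), had medians between -0.13 and -0.06 and shares from 5.92% to 8.11%. With the median of chromosome 6 removed, the bound of Dlx5 was -1.72.

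**Figure D2:**
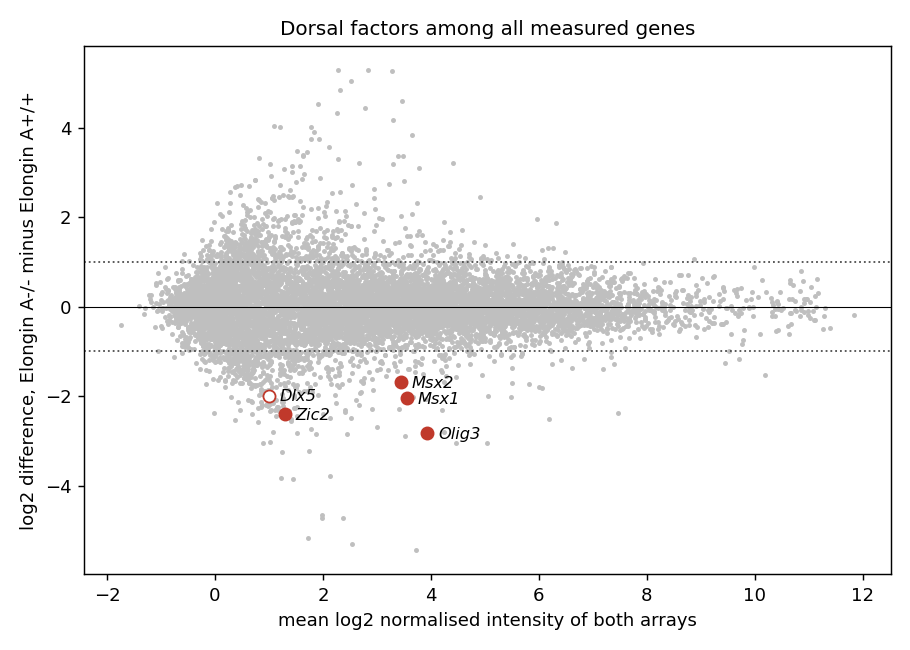
Log2 difference, Elongin A-/- minus Elongin A+/+, against the mean log2 normalised intensity of both arrays for 9568 measured genes (grey) and the 5 factors (red, open for the bound of Dlx5), with 2-fold dotted. Olig3, Msx1 and Msx2 lie below most genes of their level, and Zic2 and Dlx5 lie where the grey points spread widely.

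Relatives of the 5 factors did not all follow them. The array named 11 of 14 related Msx, Dlx, Olig and Zic genes, and 7 were measured. At least 2-fold lower were 3 of the 7, none was higher by that margin, and the median was -0.51. In the Zic family, whose members overlap in the dorsal tube, Zic1 had 17.0 in Elongin A-/- bodies and 41.2 in Elongin A+/+ bodies (-1.28). Zic5, which stands beside Zic2 on chromosome 14, had 2.23 and 4.79 (-1.10), and lay within 2-fold in the deposited values and with a pseudocount at the floor. All measured Zic genes were thus lower. Zic2 was chosen for its lower value in this comparison, so nothing is read from its place in the family. Its margin also hung on the floor. Raising dim values to the 75th percentile left Zic2 a bound of -0.12. Zic1 stayed between -1.28 and -1.17 over the 10 other settings. Zic4 had no value over the floor on either array.

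The Msx and Olig families were divided. Msx3, the member of its family confined to the dorsal neural tube in the mouse, had 15.2 in Elongin A-/- bodies and 9.29 in Elongin A+/+ bodies, a difference of 0.71 that runs opposite to Msx1 and Msx2. Olig2, the ventral relative of Olig3 that specifies motor neuron progenitors, had 1.53 and 0.902, a bound of 0.58, and Bhlhe23, a related helix-loop-helix factor, had 1.72 and 1.90 (-0.14). Among Dlx genes, Dlx3, another border and ectoderm factor, was at least 2.37-fold lower (0.938 against 2.43), Dlx4 had 1.12 and 1.59 (-0.51), and Dlx1 and Dlx2, forebrain factors, were below the floor on both arrays, as was Olig1. The signs of these differences held under every scaling tried.

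**Figure D3:**
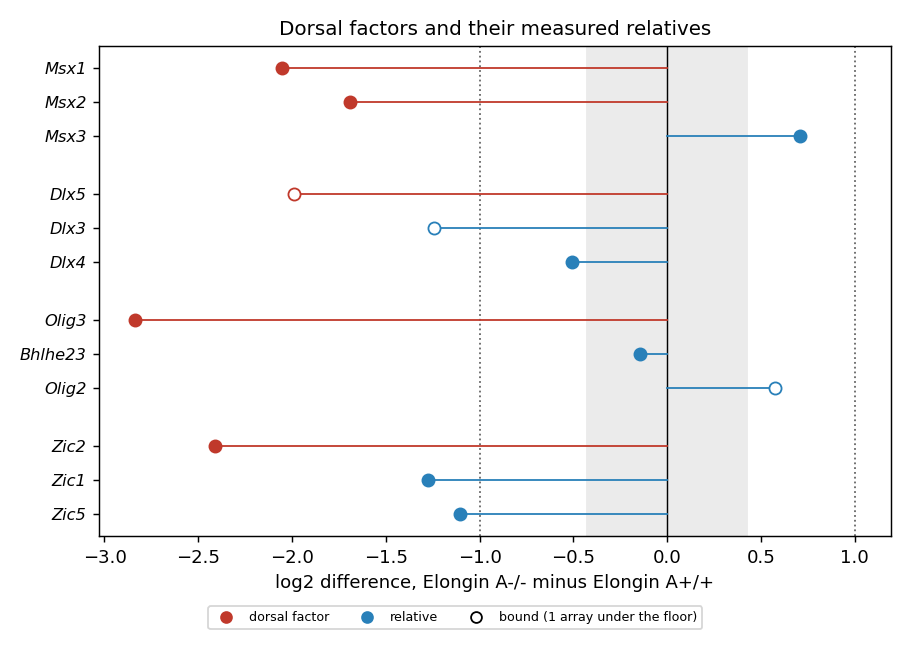
Log2 difference, Elongin A-/- minus Elongin A+/+, of the 5 factors (red) and their 7 measured relatives (blue) by family, with open points for bounds, 2-fold dotted and the SD between probes of 0.43 shaded. Msx3 and Olig2 lie right of 0, opposite to Msx1, Msx2 and Olig3, while the 3 Zic genes all lie left of it.

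Other genes of the dorsal tube give a mixed picture of the region that the 5 factors mark. Of 11 measured genes of roof plate and dorsal progenitors, 3 were at least 2-fold lower and 1 higher, with a median of -0.54. The signals of the dorsal midline were among the lower ones: Wnt1 had 7.92 in Elongin A-/- bodies and 21.7 in Elongin A+/+ bodies (-1.46), and Wnt3a had 2.61 and 8.72 (-1.74). Neurog2, a proneural factor, had 2.42 and 8.07 (-1.74). Gbx2, a homeodomain factor of hindbrain and spinal cord, had 6.11 and 10.5 (-0.78). Pax3 and Pax7, the paired-box factors that define the dorsal tube, did not share the size of these differences. Pax3 had 3.56 and 4.95 (-0.48), near the SD between probes, and Pax7 had 6.62 and 4.14 (0.68). Ptf1a, a factor of dorsal inhibitory neurons, was at least 2.60-fold higher (2.67 against 0.317). Lmx1a, a roof plate factor, had 1.39 and 0.814, and Lmx1b and Atoh1 were below the floor on both arrays. The label of the group is thus borne by Pax3, Pax7, Wnt1 and Wnt3a on both arrays, with no roof plate factor above the floor in Elongin A+/+ bodies among Lmx1a and Lmx1b.

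Factors of dorsal interneurons were lower in 9 of 9 measured cases by any margin, 2 of them at least 2-fold. Their median was -0.38, against -0.02 over all measured genes, and lay between -0.95 and -0.28 over the 10 other settings. Barhl2, Foxd3 and Foxp2 were under the floor in Elongin A-/- bodies. Being measured in Elongin A+/+ bodies alone, these could only come out lower, so nothing is read from the count or the median. Several of the 9 lay so near 0 that another scaling or the removal of chromosome medians turned their sign. The 2 were Isl1 (2.24 against 10.0), a factor of 1 class of dorsal interneurons and of motor neurons, and Lhx5 (2.97 against 12.7). The next were Lhx1 (-0.87), which passed 2-fold with chromosome medians removed, Pax8 (-0.73) and Prrxl1 (-0.38). In the list of ventral neural tube genes 12 were measured, 3 of them at least 2-fold higher and 1 lower. Their median of 0.13 turned to -0.05 when the floor was the 25th percentile. Irx3 had 114 in Elongin A-/- bodies and 45.5 in Elongin A+/+ bodies (1.32), and its relative Irx5 had 9.62 and 3.92 (1.29), both homeodomain factors of the neural tube. Removing the median of their chromosome brought Irx3 and Irx5 under 2-fold. Vsx1, a homeodomain factor, was at least 2.10-fold higher (2.15 against 0.410). Gata3, a factor of ventral inhibitory interneurons, had 7.05 and 16.4 (-1.21), and Foxa2, the floor plate factor, had 1.56 and 2.65 (-0.77). By any margin 7 genes of this list were higher and 5 lower. The rest of the lower ones were Nkx6-1 (-0.34), Shh (a bound of -0.33) and Gli1 (-0.27).

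Genes of BMP signalling, which induces Msx1, Msx2 and Dlx5, stood on both sides of 0, with 9 higher and 12 lower by any margin. Of 21 measured genes, 1 was at least 2-fold higher and 2 lower, with a median of -0.05 that lay between -0.08 and 0.18 over the 10 other settings. The counts depended on the floor. With the floor at the 25th percentile or none, 5 were lower and 1 higher, as Bmpr1b, Nog and Bmp5 passed 2-fold. At the 75th percentile 0 were lower and 1 higher. Among ligands, Bmp4 had 8.18 in Elongin A-/- bodies and 10.2 in Elongin A+/+ bodies (-0.31), and Bmp5 had 0.878 and 1.91, a bound of -0.89. Bmp2 and Bmp7 were below the floor on both arrays, as was the target gene Id4. The receptor Bmpr1a had 1.03 and 1.71 (-0.73). Id1, a direct target of BMP signalling, had 54.1 and 83.0 (-0.62), which is less than the difference of Msx1 or Msx2. The antagonists Grem1 (1.14 against 3.56) and Twsg1 (1.04 against 2.11) were lower, Grem1 by 3.13-fold and Twsg1 by 2.02-fold, which was under 2-fold in the deposited values, with a pseudocount at the floor and with chromosome medians removed. Hey1, a target shared with Notch, had 16.9 and 4.35 (1.96). The feedback inhibitors Smad6 (0.72) and Bambi (0.70), picked out after their values were seen, were higher. Id1 was thus lower while Hey1, Smad6 and Bambi were higher, and the activity of BMP signalling was not tested.

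WNT targets and ligands ran lower, with 5 of 14 measured genes at least 2-fold lower, 1 higher and a median of -0.95. Beside Wnt4 (1.36 against 9.87) and Sp5 (2.04 against 14.7), Notum, an extracellular WNT inhibitor and target gene, had 1.11 and 5.18 (-2.23). Fzd10, a WNT receptor of the dorsal neural tube, had 5.23 and 15.3 (-1.55). Axin2 (-0.42) and Lef1 (-0.99), targets chosen after their values were seen, did not reach 2-fold, and Wnt5a, a ligand of non-canonical signalling, was at least 3.23-fold higher (3.32 against 0.419). Deposited values gave these WNT genes a median of -0.83. When the floor was the 75th percentile, Wnt4, Wnt3a, Neurog2 and Isl1, dim in Elongin A-/- bodies, were within 2-fold.

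Msx and Dlx factors also act outside the neural tube, and the medians of lists of those tissues were not lower. Among 7 measured neural crest genes 1 was at least 2-fold lower and 2 higher, with a median of 0.36. Tfap2b, a crest and ectoderm factor, had 4.55 in Elongin A-/- bodies and 10.7 in Elongin A+/+ bodies (-1.23), while the mesenchymal cadherin Cdh11 had 20.4 and 6.80 (1.59). Sox9, a factor of crest and cartilage, had 6.01 and 2.03 (1.57) and was within 2-fold when the floor was the 75th percentile. Cdh6 (-0.93) and Snai2 (0.64) had bounds that passed 2-fold with a lower floor or none. Among 9 measured surface ectoderm genes 1 was higher and 1 lower, with a median of 0.07 that turned to -0.07 over genes with 1 probe only. The pair were both grainyhead factors of epithelia: Grhl2 was at least 2.32-fold higher (2.38 against 0.393), though within 2-fold as a mean over its probes, and Grhl1 at least 2.18-fold lower (0.637 against 2.24), though within 2-fold with a pseudocount at the floor. The epithelial genes Epcam (-0.74), Esrp1 (0.70) and Cdh1 (0.63) stood on both sides of 0. The 7 measured genes of bone and limb mesenchyme, where Msx and Dlx factors act in the embryo, included 3 at least 2-fold higher and 0 lower. Their median was 0.99. By any margin 6 were higher and 1 lower, Ibsp, with 1.44 in Elongin A-/- bodies and 2.54 in Elongin A+/+ bodies (-0.82). Alx1, a craniofacial mesenchyme factor, had 10.7 and 3.05 (1.81), and Meox1, a somite factor, had 38.6 and 17.8 (1.11). Col1a1, a collagen of bone and connective tissue, was at least 4.43-fold higher (4.55 against 0.854), while Prrx1 (0.99) and Alpl (a bound of 0.95) lay so near 2-fold that other settings moved them past it.

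General neural genes show how far the arrays differ beyond the dorsal region. Among 14 measured progenitor genes the median was -0.28, 2 were at least 2-fold lower and none was higher. With the floor at the 25th percentile or none, 4 were lower, as Otx2 and Dach1 passed 2-fold. The summed intensity of the progenitor genes was higher, with 1181 in Elongin A-/- bodies against 978 in Elongin A+/+ bodies. Vim, the brightest of them, made 934 against 713 of it. Sox2 had 39.5 in Elongin A-/- bodies and 72.2 in Elongin A+/+ bodies (-0.87), Pax6 had 12.9 and 9.32 (0.46), and Sox1 was at least 2.43-fold lower. The widest difference was that of Fabp7, a fatty acid binding protein of radial glia, with 7.37 and 30.6 (-2.06), as low as Msx1. Msi1 (-0.89) and Prom1 (0.78) did not reach 2-fold. Among 15 measured neuronal genes the median was -0.65, 4 were at least 2-fold lower and none was higher. With the floor at the 25th percentile or none, 5 were lower and 2 higher, with Myt1 lower and Dcx and Snap25 higher past 2-fold. The summed intensity of the 15 was 304 in Elongin A-/- bodies against 499 in Elongin A+/+ bodies. Neurod4, a proneural factor, had 3.13 in Elongin A-/- bodies and 20.4 in Elongin A+/+ bodies (-2.70), Nhlh2, a helix-loop-helix factor of early neurons, had 22.2 and 90.2 (-2.02), and Syt1, a synaptic vesicle protein, had 1.51 and 5.22 (-1.79), though it was within 2-fold with the floor at the 75th percentile. These differences are of the size seen in the 5 factors. Stmn2, a growth cone protein, had 25.1 and 82.3 (-1.71), and Elavl4, a neuronal RNA-binding protein, differed by -0.95. Tubb3, a neuronal tubulin, had 168 and 179 (-0.09), with a sign that turned with the values as deposited.

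Markers of some other cell types were higher where the dorsal factors were lower. All 8 measured of 11 blood and endothelial markers were at least 2-fold higher in Elongin A-/- bodies, against 6.76% of all measured genes. They summed to 156 there against 7.46 in Elongin A+/+ bodies. All 11, with those under the floor on both arrays, summed to 158 against 9.09. Pecam1, Tek, Esam, Tal1, Hbb-bh1 and Hba-x were under the floor in Elongin A+/+ bodies. Being measured in Elongin A-/- bodies alone, these could only come out higher, so nothing is read from the count or from the sum of the measured markers. Kdr (54.4 against 2.23) and Cldn5 (60.2 against 1.56) were above the floor on both arrays. Cdh5, Tie1 and Gata1 were below the floor on both arrays. The 6 measured of 8 endoderm markers had 2 at least 2-fold higher and 1 lower. They summed to 35.9 in Elongin A-/- bodies against 17.2 in Elongin A+/+ bodies. Of these sums Sox7 made 14.9 against 1.25 and Sox17 made 10.6 against 5.71. Ttr (3.42 against 0.990) and Gata6 (4.40 against 2.65) were higher as well. Afp (1.01 against 3.99) and Foxa2 (1.56 against 2.65) were lower. Apoa1 and Gata4 were below the floor on both arrays, so the endoderm markers gave no single direction. Summed markers of bone and limb mesenchyme were 61.8 against 27.3, of which Meox1 made 38.6 against 17.8. Surface ectoderm markers summed to 162 against 164. Those of neural crest were 292 against 384, of which Crabp1, a retinoic acid binding protein picked out after its values were seen, made 248.8 against 354.0, while the median difference of that list was 0.36. The part of such cells in the lower level of the 5 factors was not tested.

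**Figure D4:**
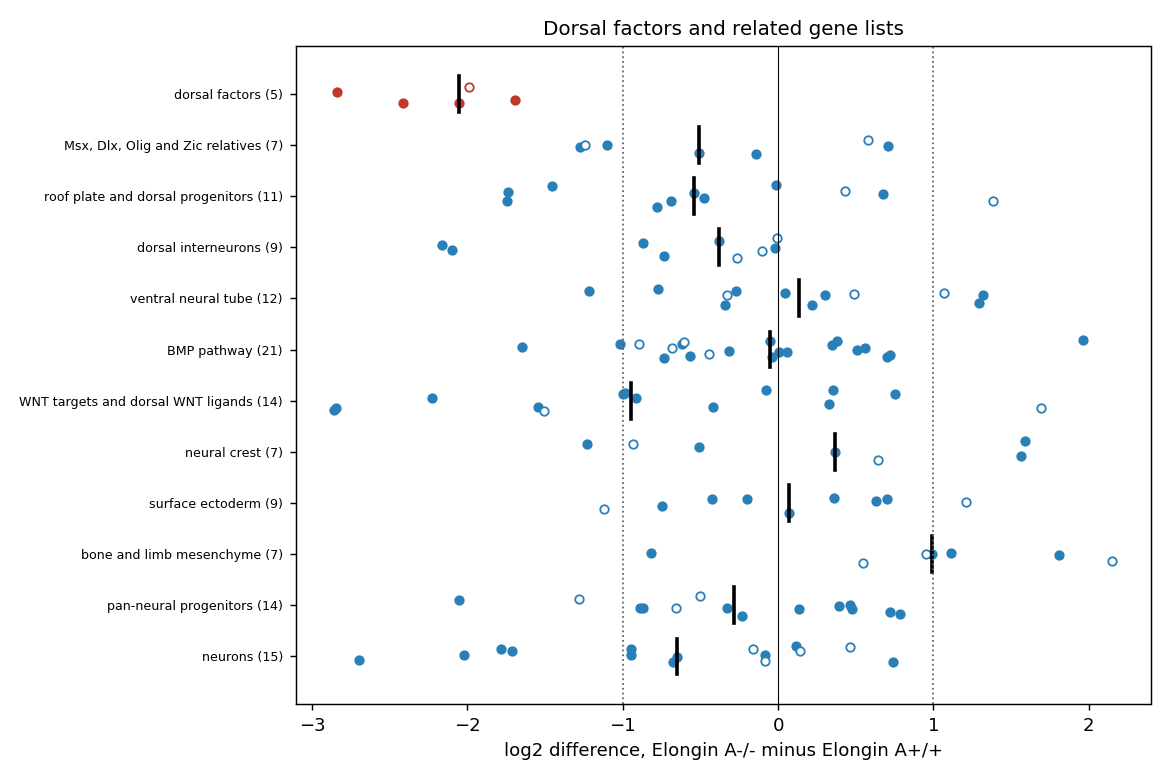
Log2 difference, Elongin A-/- minus Elongin A+/+, of every measured gene of each list (points, open for bounds), with the number of measured genes in brackets, the list median as a black bar and 2-fold dotted. The 5 factors lie left of -1, and the medians of the other lists run from -0.95 for WNT genes to 0.99 for bone and limb mesenchyme.

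Most measured genes that stand near the factors on their chromosomes did not share the size of their differences. The 3 nearest protein-coding genes on each side in the RefSeq order of GRCm38.p6 made 30 neighbours, of which 20 were measured. At least 2-fold lower was 1 of the 20, Zic5, against 5.97% of all measured genes. At least 2-fold higher was 1, Perp, against 6.76%. An epithelial gene near Olig3, Perp had 2.60 in Elongin A-/- bodies and 0.737, under the floor, in Elongin A+/+ bodies. Dlx6, next to Dlx5, was not named on the array. The examples that follow were picked out after their values were seen. Stx18, next to Msx1, had 14.0 in Elongin A-/- bodies and 18.2 in Elongin A+/+ bodies (-0.38). Sem1, near Dlx5, had 412 and 547 (-0.41), and Pcca, next to Zic2, had 49.5 and 65.9 (-0.41). Ifngr1, next to Olig3, differed by -0.13, and Sfxn1, near Msx2, had 133 and 145 (-0.13).

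Over 2 arrays the likeness of patterns can be given only as the gap between differences. Among 7331 genes outside the lists and above the floor on both arrays, the nearest to Olig3 was Fgf15, a growth factor gene, at -2.83. Spred1, an inhibitor of the ERK pathway, stood nearest to Msx1 at -2.04, Cep78, a centrosomal gene, nearest to Msx2 at -1.69, and Tecta, a gene of the inner ear matrix, nearest to Zic2 at -2.40. The gaps were all under 0.01. Within 0.1 of the factor lay 3 genes for Olig3, 10 for Zic2, 12 for Msx1 and 28 for Msx2.

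The differences of the 5 factors depended little on scaling and more on the floor. Over the 10 other settings Olig3 lay between -2.84 and -2.63, Msx1 between -2.05 and -1.88, and Msx2 between -1.69 and -1.54. Dlx5 lay between -2.07 and -1.35 over the 9 settings in which it was measured, and Zic2 between -2.45 and -0.12. The value furthest from the rest was that of Zic2 with the floor at the 75th percentile.

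**Figure D5:**
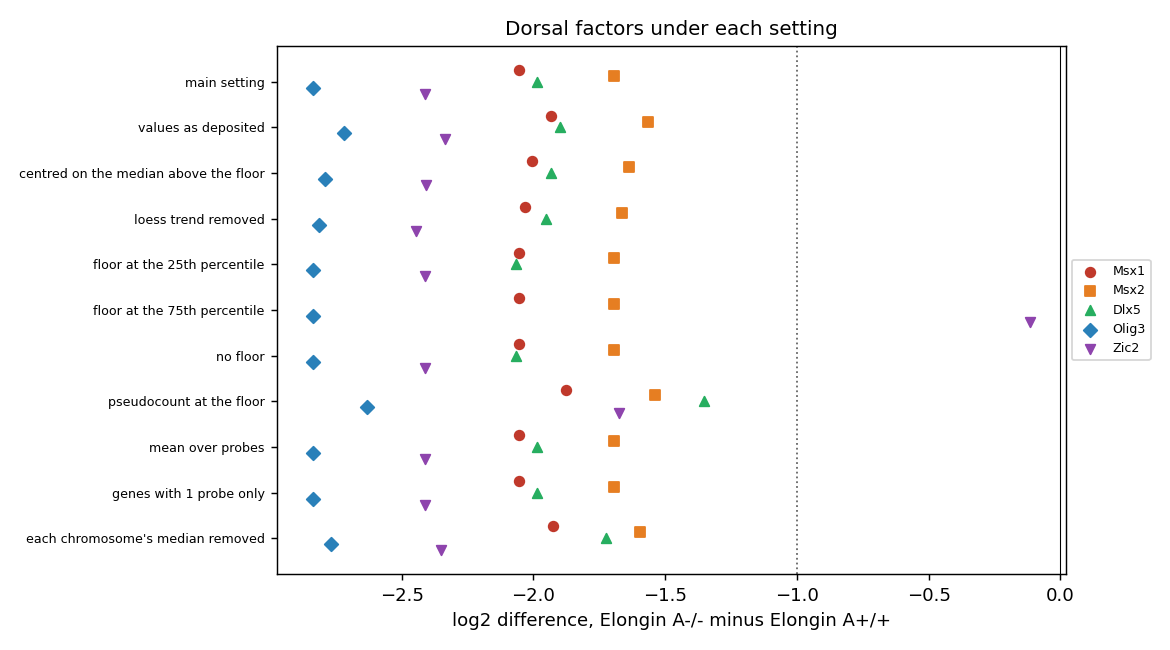
Log2 difference, Elongin A-/- minus Elongin A+/+, of each factor under the main setting and 10 others, with 2-fold lower dotted. Olig3, Msx1 and Msx2 stay left of the dotted line throughout, Zic2 reaches -0.12 when the floor is the 75th percentile, and Dlx5 has no value there.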

How the data were processed

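Total RNA of the embryoid bodies was turned into digoxigenin-labelled cRNA, per the labels' protocols. The deposited table holds 1 linear intensity per probe and array, with medians of 1.03 (Elongin A-/-) and 1.02 (Elongin A+/+). The scaling and background correction behind the deposited intensities were not given in the sources used here. Of 32440 probes, 14253 carried a single gene symbol in the platform annotation, 243 several and 17944 none, and the first kind was used. The 25th and 75th log2 percentiles differed by -0.12 and 0.15, so the arrays were quantile normalised. The probe brightest on average in log2 stood for its gene, and values under the median were raised to it. Genes past 2-fold were counted without a p-value, and having 2 arrays limits the precision. The 5 factors and 11 gene lists were chosen with earlier results of these data known. Named were all relatives of the factors, the 5 measured genes of each list with the largest absolute difference, a few regulators whatever their value (Pax3, Pax7, Bmp4, Id1, Tubb3 and others) and, for likeness, the gene with the difference nearest to each factor above the floor. The scripts were tested on simulated data. There were 12 alternatives. For scaling they were the deposited values, centred values and removal of a loess trend with a span of 0.3. For the floor they were the 25th percentile, the 75th percentile, none, or a pseudocount of that size. The others averaged probes, kept single-probe genes, took out chromosome medians, or counted at 1.5-fold or 3-fold. Python 3.11.15, numpy 2.4.6, pandas 2.3.3 and statsmodels 0.14.6 were used.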

Additional observations from a re-analysis of the deposited data

How the results depend on the processing

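All 5 factors were at least 2-fold lower in Elongin A-/- bodies under the main setting, under both other folds and under 9 of the 10 other settings of scaling, floor and probes. A floor at the 75th percentile left 3, since Dlx5 was then under it in both genotypes and the bound of Zic2 was -0.12. A pseudocount at the floor gave -1.35 for Dlx5 and -1.68 for Zic2, since it pulls dim values together by construction. The count of all genes at least 2-fold higher was 647 and lower 571. It was 1075 and 980 for a floor at the 25th percentile, 141 and 118 for one at the 75th, 1080 and 982 without a floor, 1512 and 1416 past 1.5-fold, and 213 and 178 past 3-fold. The share of higher genes among these was 53.1%, and 64.0% for deposited values. Of 33 counts and medians of the other lists, 13 moved when the floor was the 75th percentile and at most 4 under any other setting of scaling, floor or probes. No paired analysis was possible because each genotype has 1 array. Signals near the floor limit what Zic2 and Dlx5 show.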
